A study of Mus musculus with 4 samples.

Results

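Cd163-positive macrophages were studied in 4T1 tumours of mice, as the cells that carried RNA of Cd163 and of Mrc1 together. They were selected on their own RNA values: a cell was taken as a member if it held at least 1 molecule (a unique molecular identifier, UMI) of Cd163, at least 1 of Mrc1 and at least 1 of Adgre1 or Csf1r. S100a8 and S100a9 had to make up less than 1% of its UMIs, Krt8 and Krt18 less than 0.2%, and Col1a1, Col1a2 and Col3a1 less than 0.5%, limits set against neutrophils, tumour cells and fibroblasts. Barcodes needed at least 300 detected genes and at most 15% of UMIs from mitochondrial genes. Of 33064 barcodes, 32133 passed these last limits, and 1403 of them, or 4.37% (95% exact binomial interval 4.15 to 4.60), were Cd163-positive macrophages. Membership depends on depth: when cells were thinned to 1000 UMIs before the rule, 277 of 30243 cells (0.916%) met it.

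4T1 is a mouse mammary carcinoma line, and 1000000 cells had been placed in the right flank of female BALB/c mice aged 6 to 8 weeks. The mice received either saline (PBS) or TIOs, which are macrophages loaded with light-converting nanoparticles that carry the photosensitizer Ce6 and the ferroptosis inducer RSL3, and then frozen in liquid nitrogen. Both were given intravenously on day 7, and near-infrared light of 980 nm (1.0 W/cm2 for 5 min) followed on days 8, 9 and 10 in both groups. Tumours were taken on day 13 and their CD45-positive cells were sorted for single-cell RNA sequencing. The labels put 2 samples in the PBS group and 1 in the TIOs group, and the labels of the remaining sample contradict each other, so that it was not assigned. The deposited matrix marks its 4 libraries by a suffix only, and nothing ties a suffix to a sample. No value below is therefore a comparison of treatments: each library is given on its own, by its suffix 1 to 4. No test was run over the libraries, so no p-value is given. Intervals cover counting error only.

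Cd163 is the scavenger receptor by which macrophages take up complexes of haemoglobin and haptoglobin. It is borne mainly by macrophages that live in tissues, often with the mannose receptor Mrc1, and in tumours such cells are commonly found beside macrophages that derive from incoming monocytes. Macrophages present peptides to CD4 T cells on MHC class II molecules, and how much class II they make separates macrophage states in many tissues.

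The libraries held 8111, 8902, 6902 and 9149 barcodes with 108646352, 81369540, 69255999 and 96493208 UMIs. The members numbered 24 of 7847 kept cells in library 1, 560 of 8614 in library 2, 149 of 6783 in library 3 and 670 of 8889 in library 4. Their share of the kept cells was thus 0.306% (0.196 to 0.455) in library 1, 6.50% (5.99 to 7.04) in library 2, 2.20% (1.86 to 2.57) in library 3 and 7.54% (7.00 to 8.11) in library 4. Library 1 stood apart, with few members among as many cells, while libraries 2 and 4 together held 87.7% of them. As a share of the macrophages with Mrc1 RNA that met every other criterion, the members made up 3.18% (2.05 to 4.70), 38.7% (36.2 to 41.2), 28.9% (25.0 to 33.1) and 24.1% (22.5 to 25.7) in libraries 1 to 4. On this scale library 2 was highest, so that the order of libraries 2 and 4 depends on the denominator, while library 1 was lowest on both scales. The cause of the differences between libraries was not tested.

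**Figure D1:**
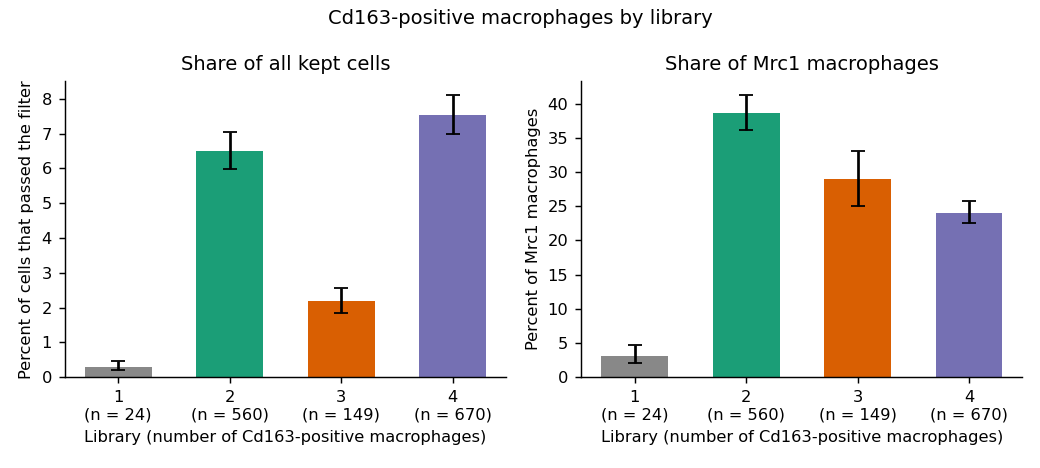
Share of Cd163-positive macrophages in each of the 4 libraries, in percent of kept cells (left) and of macrophages with Mrc1 RNA (right); columns are the shares, bars the 95% exact binomial intervals, which cover counting error only, and n the number of members. Library 1 is lowest on both scales (0.306% and 3.18%), library 4 highest among all kept cells (7.54%) and library 2 highest among macrophages with Mrc1 RNA (38.7%).

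Depth and a few very deep barcodes matter for the values that follow. The median member held 9362.5, 6399.5, 5554 and 9297.5 UMIs in libraries 1 to 4, and 7644 UMIs from 2623 genes in all, against 8900.5 UMIs in macrophages with Mrc1 but no Cd163. Members ranged from 660 to 230481 UMIs, and the 71 above 20000 UMIs held 21.1% of all member UMIs. Of these 71, 39 carried a single Cd163 UMI. The 4 members above 100000 UMIs all came from library 2 and had 1 Cd163 UMI each. They held 25, 825, 10 and 315 UMIs of endothelial genes in order of depth, and keratin shares of 0.149%, 0, 0.144% and 0.107%. Doublets were not called, and whether such barcodes hold more than 1 cell was not tested. Between libraries, 101 barcode sequences occurred more than once, 10 members carried such a sequence, and no pair of members shared one.

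Since the rule asks for Cd163, the following counts describe the choice of cells and are no finding. Of 9556 Cd163 UMIs in kept cells, 7690 (80.5%) lay in them, and of 2339 cells with a Cd163 UMI, 60.0% were members. A single Cd163 UMI was seen in 447 members, 2 in 214 and 3 or more in 742, with a median of 3 and a highest count of 101. Cells that missed one criterion alone numbered 4096 for Cd163, 106 for Mrc1, 187 for Adgre1 and Csf1r together, 37 for S100a8 and S100a9, 4 for the keratins and 98 for the collagens. The nearest cells on either side of the S100a8 and S100a9 limit had 0.997% and 1.01% of their UMIs from these genes, and 0.498% and 0.509% on either side of the collagen limit. The keratin limit was less crowded, with 0.152% for the highest member and 0.237% for the lowest cell outside.

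The macrophage label was checked against marker genes. Expression was summed over the cells of a library and given as CPM, the counts scaled to a library sum of 1000000 UMIs. Cd163, at chr6:124304656-124330527 on the plus strand of GRCm38, stood at 342, 770, 596 and 445 CPM in the members of libraries 1 to 4. Mrc1 reached 973, 1510, 1116 and 1024 CPM, the macrophage receptor gene Adgre1 177, 246, 148 and 183 CPM, and Csf1r, the receptor for the macrophage growth factor, 707, 461, 277 and 285 CPM. These genes chose the cells, so their presence is no finding. Among genes that the rule did not use, the lysozyme gene Lyz2 stood at 13060, 4078, 2971 and 7927 CPM, and Cd68, a lysosomal protein of macrophages, at 338, 373, 483 and 863 CPM. The markers of T and NK cells, in contrast, summed to 38, 29, 68 and 19 CPM, and at least 5 such UMIs were found in 8 members (0.570%). The 16 macrophage identity genes, of which Lyz2 was the most abundant, summed to 32215, 12252, 8363 and 15062 CPM in the members. In the monocytes defined further on they summed to 10759, 14718, 16032 and 21280 CPM. Their sum thus does not set the members apart from monocytes in libraries 2, 3 and 4. UMIs of fibroblast and neutrophil genes were common, and their values are given with the other cells' markers further on.

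The members were compared with the nearest macrophages, the 4096 cells that met every criterion except Cd163 (730, 888, 366 and 2112 in libraries 1 to 4). Cd163-positive macrophages carried more RNA of a group of genes of tissue-resident macrophages, of complement C1q and of the chemokine Ccl8, and less of MHC class II genes and of the monocyte gene Ly6c2. A gene was called higher or lower when its summed CPM, with 10 CPM added to each group, differed at least 2-fold in the same direction in every library with at least 30 cells of both groups, which left out library 1. Of 6118 genes with at least 20 CPM in either group, 21 (0.343%) were higher and 8 (0.131%) lower. The counts depended on library 4, without which 32 were higher and 24 lower, and 22 were lower when 1 CPM was added in place of 10. Cd163 and Mrc1 are among the 21 because the rule chose them, which leaves 19. The median log2 fold difference of all genes was 0.01. A cell with no Cd163 UMI may still express the gene, so the comparison group cannot be called negative.

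Ccl8, a chemokine that draws monocytes and T cells, had the largest median log2 fold difference over the 3 libraries after Cd163 itself, though in library 4 Gas6 and Npl differed more. It stood at 7911, 8960, 6521 and 5259 CPM in the members of libraries 1 to 4, against 776, 1786, 1014 and 1635 CPM in the comparison group. Every library of members lay above every library of the comparison group, and the log2 fold differences were 2.32, 2.67 and 1.68 in libraries 2, 3 and 4. Ccl8 lies at chr11:82115185-82116799 on the plus strand. At a fixed depth of 1000 UMIs per cell, drawn without replacement, 65.5% (62.9 to 67.9) of members held a Ccl8 UMI, against 27.5% (26.2 to 28.9) of the comparison group. T cells under the same exclusions (1215 cells), which should not make it, held one in 7.47% (6.04 to 9.12), so that both macrophage groups lay above the level that free RNA left in T cells. The groups mix the libraries differently, but within libraries 2, 3 and 4 the order was the same, at 74.6%, 62.6% and 58.7% of members, 32.4%, 22.0% and 29.0% of comparison cells and 17.9%, 5.02% and 14.6% of T cells. Without thinning, 87.5% of members had a Ccl8 UMI. Thinning left out 5 members, 20 comparison cells and 24 T cells, and the T cells' own median depth was 4408 UMIs.

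Of the 24 listed resident macrophage genes, 19 reached the CPM minimum, 7 were higher and none was lower. Their median log2 fold difference was 1.11, beside 0.01 for all genes, and 14 of the 19 were above 0 in all 3 libraries. This list and the others below were chosen with earlier results of these data known, so their medians are descriptions only. The 7 were Ccl8, Igf1, Gas6, Cbr2, Selenop, Ednrb and Folr2. Igf1 encodes a growth factor that supports tissue cells. It reached 253, 95.5 and 51.1 CPM in the members of libraries 2, 3 and 4, against 52.0, 11.2 and 14.5 CPM, for log2 fold differences of 2.08, 2.31 and 1.32. Its level in members varied between libraries, and the member value of library 4 lay just under the comparison value of library 2, but the direction within each library was the same. Gas6, the bridge by which macrophages bind dying cells, stood at 425, 199 and 165 CPM against 108, 30.1 and 34.5 CPM, with log2 fold differences of 1.88, 2.38 and 1.98. The groups did not overlap for Gas6. At 1000 UMIs it was found in 39.5%, 18.4% and 15.7% of members and 12.7%, 3.90% and 3.42% of the comparison group in these libraries, and in 0.252% of all T cells.

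Selenop, a secreted selenium carrier, was the most abundant of the 7 after Ccl8. It stood at 3067, 1571 and 1315 CPM in members and 1000.3, 435 and 458 CPM in the comparison group, and log2 fold differences were 1.61, 1.83 and 1.502. Cbr2, a carbonyl reductase, reached 452, 343 and 358 CPM against 112, 89.4 and 119 CPM, and its log2 fold differences were 1.92, 1.83 and 1.51. Both genes were apart in all 3 libraries. Ednrb, the endothelin receptor type B, stood at 368, 263 and 281 CPM against 112, 57.6 and 82.2 CPM, which gave 1.63, 2.01 and 1.66. The folate receptor gene Folr2 stood at 331, 358, 328 and 443 CPM in members of libraries 1 to 4, against 23.3, 121, 131 and 205 CPM, and its log2 fold differences in libraries 2, 3 and 4 were 1.495, 1.26 and 1.07. Library 1, though too small to enter the calls, showed the same direction for Folr2 and Ccl8. Folr2 lost its call among cells of 3000 to 15000 UMIs.

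The most abundant gene of the resident list, the platelet factor 4 gene Pf4, did not meet the call. Its levels were 8023, 18556 and 15847 CPM in the members of libraries 2, 3 and 4 and 6288, 8331 and 5909 CPM in the comparison group, so that log2 fold differences were 0.35, 1.15 and 1.42, and library 2 fell short. Lyve1, the hyaluronan receptor of a perivascular macrophage subset, was low, at 42.4, 83.3 and 4.45 CPM against 14.3, 32.9 and 0.23 CPM. The value of library 3 rests on 3 of 149 members, of which 1 held 64 of their 70 endothelial UMIs. Timd4, a receptor for dying cells that marks long-lived resident macrophages, was held at 1000 UMIs by 0.143% (0.017 to 0.516) of members and 0.168% of T cells, and is thus at background here. Marco, a scavenger receptor of resident macrophages, had 2 UMIs in all members together.

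**Figure D2:**
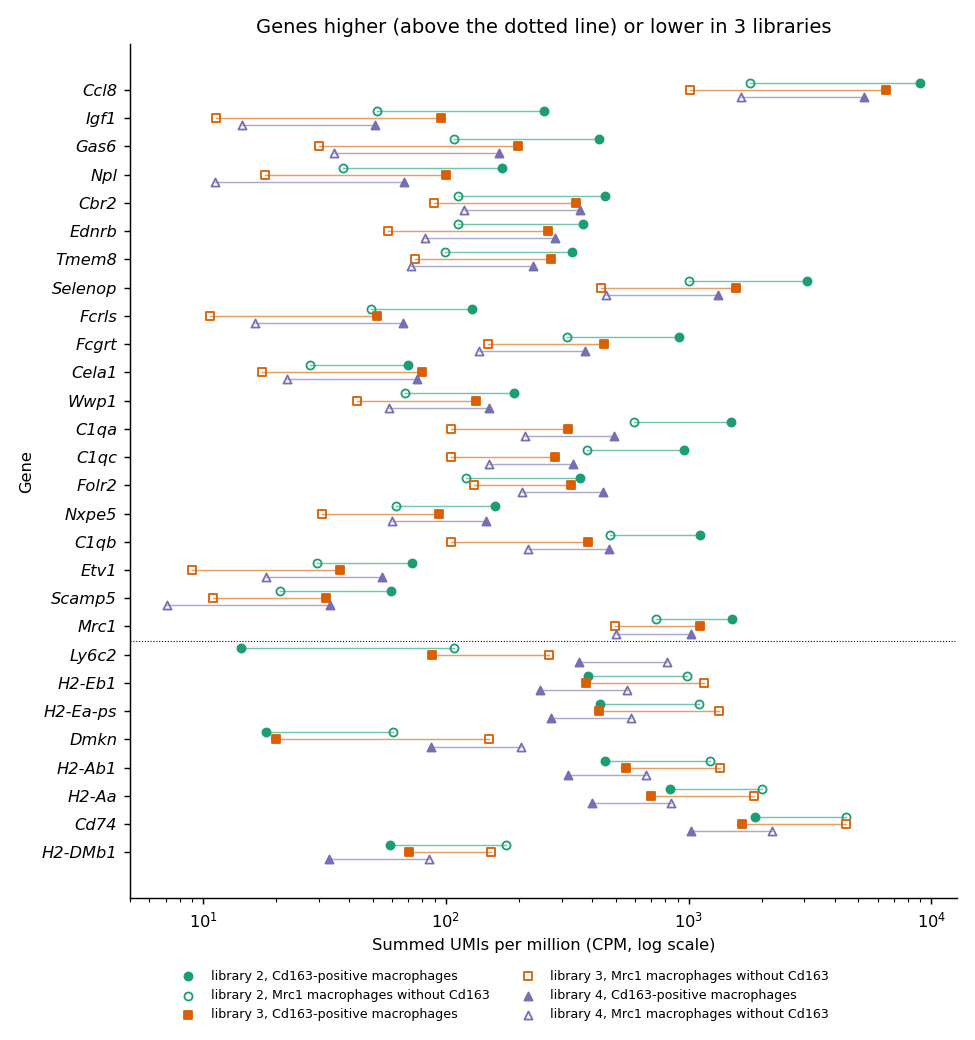
Summed level (CPM, log axis) of the genes called higher (above the dotted line, Cd163 left out) or lower in libraries 2, 3 and 4; filled symbols are Cd163-positive macrophages, open symbols macrophages with Mrc1 but no Cd163 UMI, and a line joins both groups of a library. Ccl8 lies at 5259 to 8960 CPM in the members against 1014 to 1786 CPM, and H2-Ab1 at 318 to 550 CPM against 669 to 1349 CPM.

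Complement C1q genes formed a further group of higher genes. C1qa, C1qb and C1qc encode the chains of the protein that starts the classical complement pathway and also tags dying cells. C1qa stood at 5878, 1501, 319 and 493 CPM in members of libraries 1 to 4, against 5127, 597, 105 and 212 CPM in the comparison group. Its log2 fold differences in libraries 2, 3 and 4 were 1.32, 1.52 and 1.18, but 0.20 in library 1, where both groups were high. C1qb differed by 1.22, 1.78 and 1.07 and C1qc by 1.31, 1.33 and 1.09. Of 14 measured complement genes these 3 were higher and none was lower, with a list median of 0.12. The same 3 genes were the only higher ones among 16 macrophage identity genes, whose median was 0.04.

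Among the other higher genes, Npl, which breaks down sialic acid, stood at 170, 99.8 and 67.1 CPM in the members of libraries 2, 3 and 4, against 37.6, 18.0 and 11.2 CPM. Its log2 fold differences of 1.91, 1.97 and 1.86 were the most even of those described here. Fcgrt, the neonatal Fc receptor that recycles IgG and albumin, reached 915, 448 and 374 CPM against 316, 148 and 136 CPM, with 1.51, 1.53 and 1.39, and was the only higher gene among 6 measured Fc receptor genes. Tmem8 stood at 332, 270 and 229 CPM against 99.4, 74.8 and 71.6 CPM. The Fc receptor-like gene Fcrls differed by 1.22, 1.59 and 1.53, and the elastase gene Cela1 by 1.09, 1.71 and 1.42. The remaining 4 higher genes, named after their values were seen, were Wwp1, Nxpe5, Etv1 and Scamp5, with median log2 fold differences of 1.37, 1.23, 1.20 and 1.17.

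MHC class II genes made up 5 of the 8 lower genes. All 10 measured genes of the 13 listed were below 0 in every one of the 3 libraries, and their median log2 fold difference was -1.19. H2-Ab1, a beta chain, stood at 2533, 451, 550 and 318 CPM in the members of libraries 1 to 4 and at 4760, 1220.03, 1349 and 669 CPM in the comparison group. Library 1 was high in both groups and still differed by -0.91 on the log2 scale, while libraries 2, 3 and 4 differed by -1.42, -1.28 and -1.05. Among cells of 3000 to 15000 UMIs, H2-Ab1, Cd74 and H2-Ea-ps lost their call. The alpha chain H2-Aa stood at 835, 699 and 398 CPM in libraries 2, 3 and 4 against 2004, 1862 and 847 CPM (-1.25, -1.40 and -1.07), and the beta chain H2-Eb1 at 385, 379 and 243 CPM against 983, 1156 and 556 CPM (-1.33, -1.58 and -1.16). Each library's members lay below its own comparison cells for all 3 chains. Cd74, the invariant chain that guides class II molecules, stood at 10771, 1880, 1651 and 1020 CPM against 20654, 4456, 4456 and 2203 CPM. H2-DMb1, which helps to load peptides, reached 58.7, 70.3 and 32.9 CPM against 176, 153 and 84.8 CPM.

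H2-Ea-ps, outside the list, carries the alpha chain partner of H2-Eb1. It is annotated as a polymorphic pseudogene in the C57BL/6 reference, while BALB/c mice express the chain. It stood at 432, 428 and 271 CPM against 1100.02, 1333 and 576 CPM, with log2 fold differences of -1.33, -1.62 and -1.06. Members of the list that missed the call were H2-DMb2 at -1.59, -1.46 and -0.73, H2-DMa at -1.05, -0.84 and -0.61, and the class II transactivator Ciita at -0.68, -0.41 and -0.70. At 1000 UMIs an H2-Ab1 UMI was found in 15.5% (13.7 to 17.5) of members, 32.8% (31.3 to 34.2) of comparison cells and 10.2% (8.58 to 12.1) of T cells. Library 1, with far more H2-Ab1, holds 730 of the comparison cells but 24 members, so these pooled shares also reflect the mix of libraries. In libraries 2, 3 and 4 the shares were 18.8%, 14.3% and 11.2% in members, 28.6%, 23.4% and 15.4% in the comparison group, and 7.69%, 5.56% and 6.33% in T cells. The members lay between the other groups in each of these libraries, and the part of free RNA in their UMIs was not tested.

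The H2 genes of class II lie close together on chromosome 17, and the promoters of H2-Aa and H2-Eb1 show the Y box, the inverted CCAAT element of class II promoters. These promoters are shown because, of the lower class II genes, they hold the full letters searched. The H2-DMb1 promoter held the shorter ATTGG only, and that of H2-Ab1 is not shown. Each line gives the 100 bases before the start of the RefSeq gene model (GRCm38.p6), 5′ to 3′ on the gene's own strand, with the letters CTGATTGG in capitals. The H2-Aa window is chr17:34287824-34287923 on the minus strand and the H2-Eb1 window chr17:34305767-34305866 on the plus strand. The capitals begin 51 and 62 bases before the start.
H2-Aa: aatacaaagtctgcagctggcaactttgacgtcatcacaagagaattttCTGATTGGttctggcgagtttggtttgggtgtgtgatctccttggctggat
H2-Eb1: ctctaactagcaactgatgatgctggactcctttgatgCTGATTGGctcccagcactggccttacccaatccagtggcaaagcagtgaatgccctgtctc
In the 250 bases before the start, on either strand, CTGATTGG occurred in 3.83% of 32851 RefSeq promoters, in 2 of the 5 lower genes with an entry used here and in 0 of 18 higher genes. The shorter ATTGG, contained in it, occurred in 33.8% of all promoters, in 3 of 5 and in 5 of 18. A match describes letters and shows no binding.

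The remaining lower genes were Ly6c2 and Dmkn. Ly6c2, the surface antigen of inflammatory monocytes, stood at 14.3, 87.7 and 354 CPM in the members of libraries 2, 3 and 4 and 108, 267 and 812 CPM in the comparison group, with log2 fold differences of -2.28, -1.504 and -1.17. Among these libraries the level was lowest in library 2 and highest in library 4 in both groups. In library 1 it was lower still, at 7.52 CPM in members and 4.10 CPM in the comparison group, and the difference there was 0.31. Among 14 measured monocyte genes Ly6c2 alone was lower, with a list median of -0.67 and 13 of 14 below 0 in all 3 libraries. Thbs1, thrombospondin, came near at -1.003, -1.23 and -0.85. Dmkn, which encodes the secreted protein dermokine, stood at 18.2, 19.96 and 87.2 CPM against 60.4, 150 and 204 CPM.

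Genes for handling the haem that Cd163 takes in were not called as a group. None of 15 measured haem and iron genes was higher or lower, their median was 0.17, and 8 were above 0 in all 3 libraries. Hmox1, the haem oxygenase that opens the haem ring, stood at 1029, 2575 and 2584 CPM in members and 734, 899 and 932 CPM in the comparison group, with 0.48, 1.51 and 1.46 in libraries 2, 3 and 4. The haem transporter Slc48a1 likewise differed least in library 2, at 0.37, 1.21 and 1.28, and the biliverdin reductase Blvrb stood at 0.87, 0.77 and 0.97. For Hmox1 and Slc48a1 it was library 2 that stayed under 2-fold. At 1000 UMIs, Hmox1 was held in libraries 2, 3 and 4 by 51.0%, 70.7% and 71.0% of members, 33.9%, 36.5% and 41.9% of comparison cells and 2.56%, 8.06% and 8.23% of T cells.

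Other gene groups differed little as groups. Among 20 measured chemokine genes only Ccl8 was higher, with a list median of 0.15. The platelet chemokine gene Ppbp stood at 352, 2749 and 1207 CPM against 336, 1054 and 395 CPM, so that it differed by 0.06 in library 2 and by 1.37 and 1.59 in libraries 3 and 4. Of 10 scavenger receptor genes none was called, with a median of 0.01, and Stab1, which clears modified proteins, stood at 0.88, 1.28 and 1.39. The transcription factor gene Maf stood at 1.14, 1.09 and 0.55. No gene was called among 15 alternative activation genes (median 0.25), 12 classical activation genes (-0.09), 17 lipid genes (0.15), 17 hypoxia genes (-0.28, 13 below 0 in all 3 libraries), 15 interferon genes (-0.18) or 12 cell cycle genes (-0.48). Of 11 growth factor and vessel genes only Igf1 was higher (median 0.35), and of 11 genes for the uptake of dying cells only Gas6 (0.01). The medians of 19 myeloid transcription factor genes, 13 checkpoint and regulatory ligand genes and 17 stress genes were 0.05, -0.18 and 0.17, with no gene called. Among 14 protease genes none was called (median -0.31), and Mmp12 at -1.47, -2.54 and -0.90 and Mmp9 at 0.43, 1.14 and 1.96 lay on opposite sides.

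**Figure D3:**
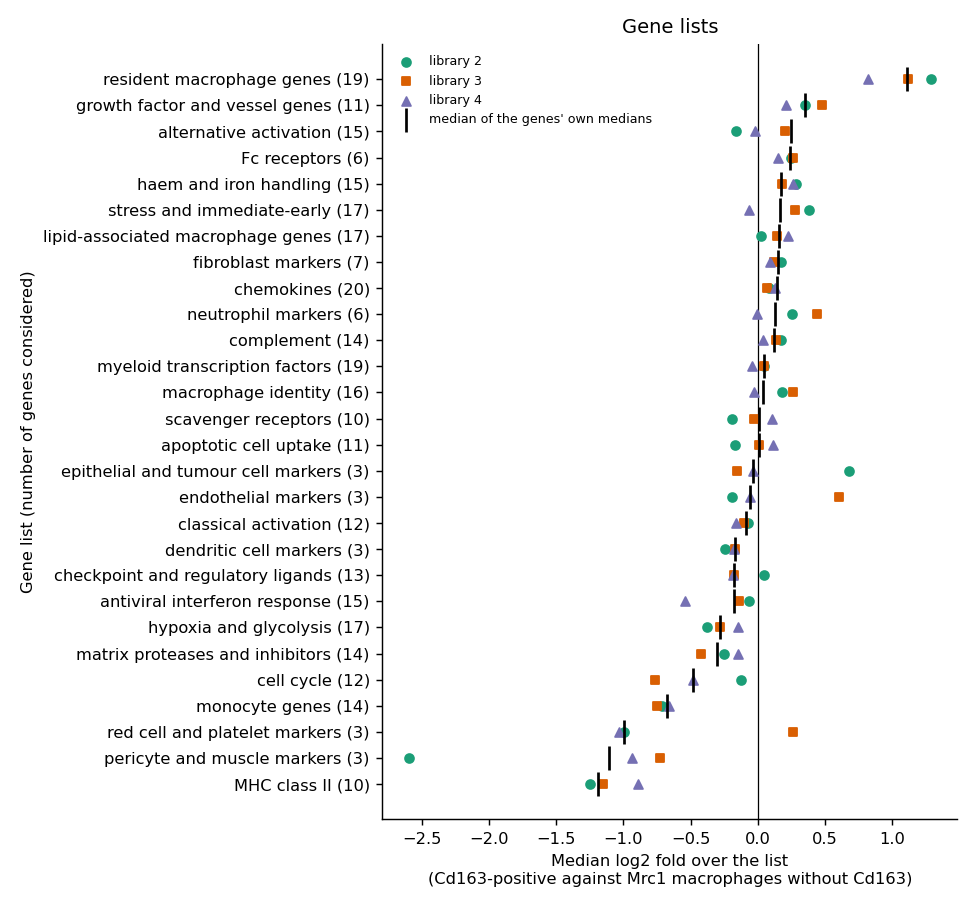
Median log2 fold difference over each gene list between Cd163-positive macrophages and macrophages with Mrc1 but no Cd163 UMI, with a symbol for each of libraries 2, 3 and 4, a black bar at the median of the genes' own medians, and the number of genes measured in brackets. Resident macrophage genes stand highest (1.11) and MHC class II genes lowest (-1.19), beside 0.01 for all genes.

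Markers of other cells were measured beside these results. Endothelial markers summed to 19, 293, 147 and 41 CPM in members of libraries 1 to 4 and to 36, 384, 94 and 64 CPM in the comparison group, and 17 members (1.21%) held at least 5 such UMIs. Fibroblast markers, in part limited by the rule, summed to 188, 2268, 2375 and 1370 CPM against 163, 2124, 2244 and 1388 CPM. Markers of pericytes and smooth muscle were lower in the members of every library, at 45, 49, 47 and 45 CPM against 66, 461, 126 and 115 CPM. Their most abundant gene, the smooth muscle actin gene Acta2, stood at 25.4, 26.9 and 22.8 CPM against 205, 69.4 and 46.8 CPM in libraries 2, 3 and 4. Epithelial markers summed to 567, 395, 6 and 10 CPM in members and to 574, 261, 13 and 10 CPM in the comparison group. At least 5 of their UMIs were held by 27 members (1.92%) and by 525 comparison cells (12.8%), of which 476 were in library 1. Red cell and platelet markers summed to 7.52, 385, 2768 and 1301 CPM against 12.5, 453, 1066 and 612 CPM. The sum was lower in the members of libraries 1 and 2 and higher in those of libraries 3 and 4. Pf4, Ppbp and Hmox1 were higher in the members of libraries 2, 3 and 4, by least in library 2. Ppbp itself is on the red cell and platelet list and is its most abundant gene. The haemoglobin gene Hbb-bs stood at 27.3, 10.4 and 66.1 CPM against 64.1, 7.03 and 152 CPM in libraries 2, 3 and 4. Neutrophil markers, in part limited by the rule, summed to 684, 1007, 1441 and 825 CPM against 347, 809, 848 and 645 CPM. Their sum was thus higher in the members of every library. The median log2 fold difference of the 6 measured genes was 0.25, 0.44 and -0.01 in libraries 2, 3 and 4, and none was called. Mmp9 is on this list too and had the largest median log2 fold difference among the 6, at 1.14. At least 5 neutrophil UMIs were held by 774 members (55.2%) and 43.4% of comparison cells, and at least 5 fibroblast UMIs by 1213 members (86.5%) and 70.4% of comparison cells. These pooled shares also reflect the mix of libraries. Libraries 1 to 4 held 24, 560, 149 and 670 members and 730, 888, 366 and 2112 comparison cells. At least 5 neutrophil UMIs were held there by 4, 265, 89 and 416 members and 165, 402, 205 and 1004 comparison cells. At least 5 fibroblast UMIs were held by 3, 530, 93 and 587 members and 47, 840, 207 and 1790 comparison cells. The part of other cells in the results above was not tested, beyond 2 filters on the cells of both groups. The first left out cells with over 0.3% of UMIs from endothelial, pericyte and muscle, epithelial, T and NK or B cell markers. The second left out cells with 2 or more UMIs of 8 genes of other cells. H2-DMb1 alone lost its call under either. Neither filter used the fibroblast or neutrophil lists, and Csf3r was the only neutrophil gene used. Cells rich in fibroblast or neutrophil UMIs were thus not removed.

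Levels were also followed over the number of Cd163 UMIs per cell. Between cells with 1 Cd163 UMI and those with none, 1 of 6196 genes was called higher (0.0161%), Cd163 by rule, and none lower, though single libraries differed more than 2-fold, as for Ly6c2 and H2-Ab1 in library 2. Cells with 3 or more UMIs differed from those with none in 39 higher (0.627%) and 31 lower genes (0.499%) of 6216. Ccl8 stood at 1786, 1883, 8695 and 14239 CPM in cells of library 2 with 0, 1, 2 and 3 or more Cd163 UMIs. In library 3 the same steps gave 1014, 1839, 5442 and 9371 CPM, and in library 4 they gave 1635, 2707, 4497 and 7785 CPM. Each step was upward in all 3 libraries. H2-Ab1 went the other way, at 1220.03, 575, 539 and 340 CPM in library 2, 1349, 1310, 190 and 168 CPM in library 3, and 669, 514, 289 and 150 CPM in library 4. Selenop stood at 1000.3, 1276, 2826 and 4441 CPM in library 2 and at 458, 736, 1084 and 1906 CPM in library 4. Hmox1 in library 4 stood at 932, 1439, 2021 and 3783 CPM, and Ly6c2 there at 812, 511, 393 and 202 CPM. Ly6c2 kept no such order in library 2, at 108, 7.499, 28.8 and 16.2 CPM, or in library 3, at 267, 96.4, 140 and 74.8 CPM. Steps in the same direction throughout were seen for Ccl8, Gas6, Igf1, Selenop, Hmox1 and H2-Ab1 in all 3 libraries. The order was broken at 3 or more UMIs for Cbr2, Folr2 and Fcgrt in library 3 and C1qa in libraries 2 and 3, and at 2 UMIs for H2-Aa and Cd74 in library 2.

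**Figure D4:**
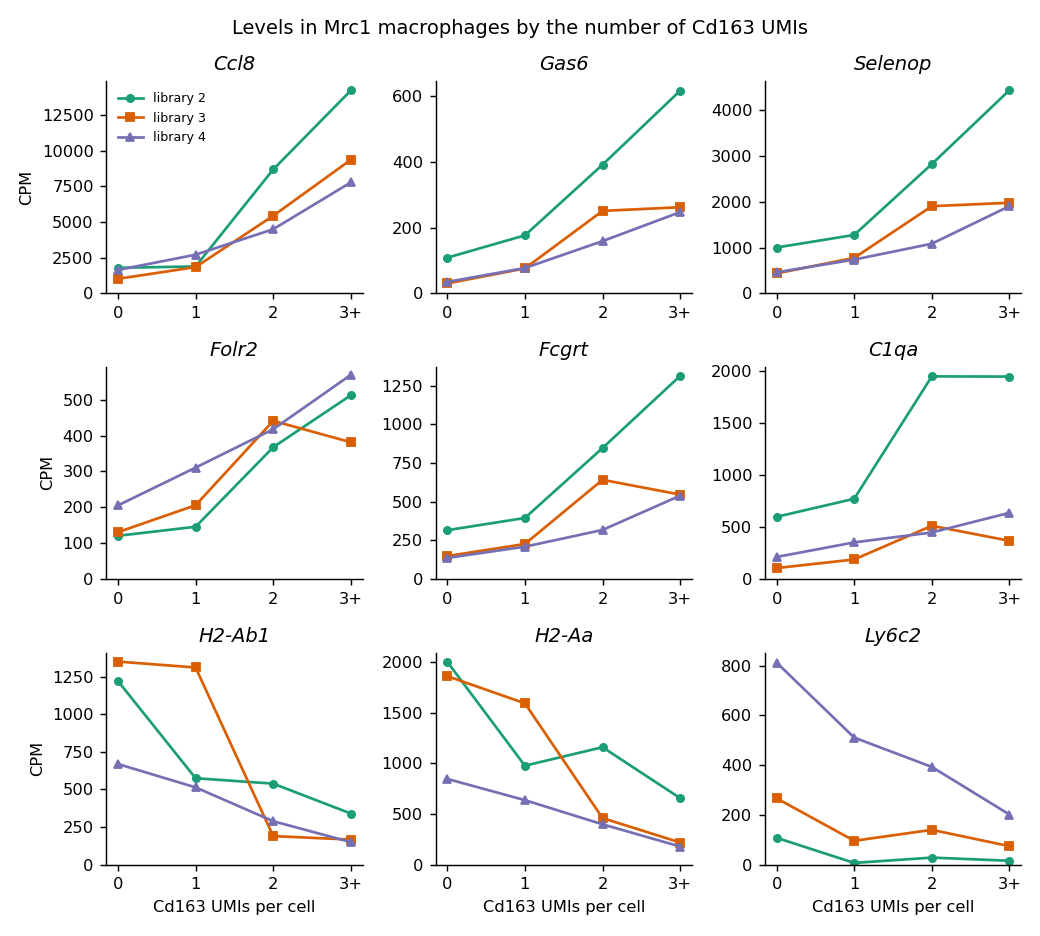
Summed level (CPM, linear axis from 0) of 9 genes in macrophages with Mrc1 RNA and 0, 1, 2 and 3 or more Cd163 UMIs, with 1 line for each of libraries 2, 3 and 4. Ccl8 is higher at each step (1786 to 14239 CPM in library 2) and H2-Ab1 lower (669 to 150 CPM in library 4), while Folr2, Fcgrt and C1qa of library 3 are highest at 2, and Ly6c2 is out of order in libraries 2 and 3.

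Within the members, 12 of 6384 genes (0.188%) were higher with 3 or more Cd163 UMIs than with 1, and 15 (0.235%) lower. Besides Cd163 the 12 were Ccl8, Npl, Igf1, Gas6, Cbr2, Selenop, Cela1, Fcgrt, Tmem8, Ednrb and the adaptor gene Ap1b1. H2-DMb1 and H2-DMb2 were among the 15. Depth differed in these classes, with a median of 8813 UMIs for 1 Cd163 UMI, 6244.5 for 2 and 7531 for 3 or more. The cells with 1 UMI included the 4 deepest barcodes, and endothelial markers stood at 685 CPM in the 140 such cells of library 2. Without members above 20000 UMIs, 4 genes were higher in place of 12, namely Cd163, Ccl8, Npl and Igf1, and 12 lower in place of 15. H2-DMb2 was then no longer among the lower genes, while H2-Eb1, H2-Aa, H2-Ab1, Cd74 and H2-Ea-ps were.

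Class II and Folr2 divided the members further. A Folr2 UMI was held by 1046 members (74.6%), a split added after values were seen. With Folr2, 13 of 6308 genes (0.206%) were higher and 18 (0.285%) lower. The 13 were Folr2, which defines the split, Ccl8, Npl, the 3 C1q genes, Cbr2, Syngr1, Hpgds, Ms4a7, Trem2, Ccl12 and Stab1, and the 18 included 8 genes of the class II list. Without members above 20000 UMIs, 9 genes were higher and 14 lower, and Ccl8, Npl, Trem2, Ccl12 and Stab1 were no longer among the higher genes, nor H2-DMb2 and Ciita among the lower. H2-Ab1 stood at 257, 244 and 184 CPM with Folr2 and at 1115, 1399 and 860 CPM without it in libraries 2, 3 and 4. Members without Folr2 were thus near the comparison group's 1220.03, 1349 and 669 CPM. Ccl8 stood at 10772, 7815 and 6359 CPM with Folr2 and 2741, 2930 and 830 CPM without it. Median depth was 8399.5 UMIs with Folr2 and 5574 UMIs without, and a shallow cell that expresses Folr2 can fall in the second class.

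Lyve1 UMIs were found in 82 members (58 of them in library 2), and at 1000 UMIs in 2.29% (1.57 to 3.22) of members against 0.252% of T cells. Only library 2 had enough cells for the split, so it has no second library. There 269 of 6710 genes (4.01%) were higher and 101 (1.51%) lower in members with Lyve1, endothelial genes such as Kdr, Cdh5 and Egfl7 included. The epithelial markers Krt14, Krt19 and Krt7 were also higher. Without cells of at least 5 endothelial UMIs, Krt16 and Krt14 led the higher genes after Lyve1. Over all libraries, median depth was 10629.5 UMIs with Lyve1 and 7523 UMIs without. Of 858 endothelial UMIs in the members of library 2 with Lyve1, 825 lay in 1 barcode. Without members above 20000 UMIs the endothelial sum dropped from 966 to 39.4 CPM and 91 genes were higher, led after Lyve1 by the division genes Stmn1, Birc5, Top2a and Pclaf and the ficolin gene Fcna. Of the 90 lower genes then, H2-Ea-ps, Ccl5, Spp1, H2-Eb1 and H2-Aa were among the first. Mki67, made by dividing cells, was found in 207 members (14.8%), with 148 of 6602 genes higher (2.24%) and 1 lower (0.0151%). Endothelial markers summed to 721, 317 and 29.9 CPM with Mki67 and 69.4, 30.6 and 42.6 CPM without it in libraries 2, 3 and 4. Of 1223 endothelial UMIs with Mki67 in library 2, 825 lay in 1 barcode. In library 3 the sum with Mki67 was 598 CPM without members above 20000 UMIs. Median depth was 10037 UMIs with Mki67 and 7288 UMIs without. Without members above 20000 UMIs only Mki67 itself was higher.

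Against monocytes the differences were wider. The monocytes were the 1863 cells with Ly6c2 and Ccr2 but neither Cd163 nor Mrc1. In the members 104 of 6222 genes (1.67%) were higher and 97 (1.56%) lower than in these monocytes. Cd163 and Mrc1 among the higher and Ly6c2 among the lower genes follow from the rules that chose the groups. The members are the same cells as in the comparison above, so the results are not independent of it. Pooled over libraries, Cbr2 stood at 388 against 25.2 CPM, Ccl8 at 6796 against 515 CPM and Pf4 at 12895 against 1303 CPM, with median log2 fold differences of 3.78, 3.74 and 3.39. Of the resident macrophage genes 10 were higher, with a median of 2.39, and of the haem and iron genes Blvrb, Hmox1 and Slc48a1. In the monocyte list, of which the comparison rule used 2 genes, 9 were lower, with a median of -1.40, and 5 interferon genes were lower too. No class II gene was called against monocytes (median -0.31). The monocyte group also carried lymphoid genes, among them the granzyme gene Gzma, and 4 T and NK cell markers were lower in the members.

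A last group was the 611 macrophages with C1q but neither Cd163 nor Mrc1, of which 527 came from library 1. Only libraries 2 and 4 had enough of them, with 39 and 33 cells. There 93 of 6337 genes (1.47%) were higher in the members and 26 (0.41%) lower. Cd163 and Mrc1 are again among the higher genes by rule. Of 10 measured class II genes 6 were higher in the members and none lower, with a median of 1.33. H2-Ab1 stood at 451 and 318 CPM against 136 and 60.3 CPM in libraries 2 and 4. In library 1 the order was the opposite, with 2533 CPM in the 24 members and 4359 CPM in the C1q macrophages, and in library 3, with 12 C1q cells, it was 550 CPM against 604 CPM. Ccl8 reached 831 CPM in the C1q macrophages of library 2 and 4785 CPM in those of library 4, beside 8960 and 5259 CPM in the members. These few C1q cells also carried markers of other cells. Their endothelial markers summed to 1036 CPM in library 2, against 293 CPM in the members, and their T and NK cell markers to 1761 CPM in library 4, against 19 CPM. The part of such RNA in the class II and Ccl8 values of this group was not tested.

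**Figure D5:**
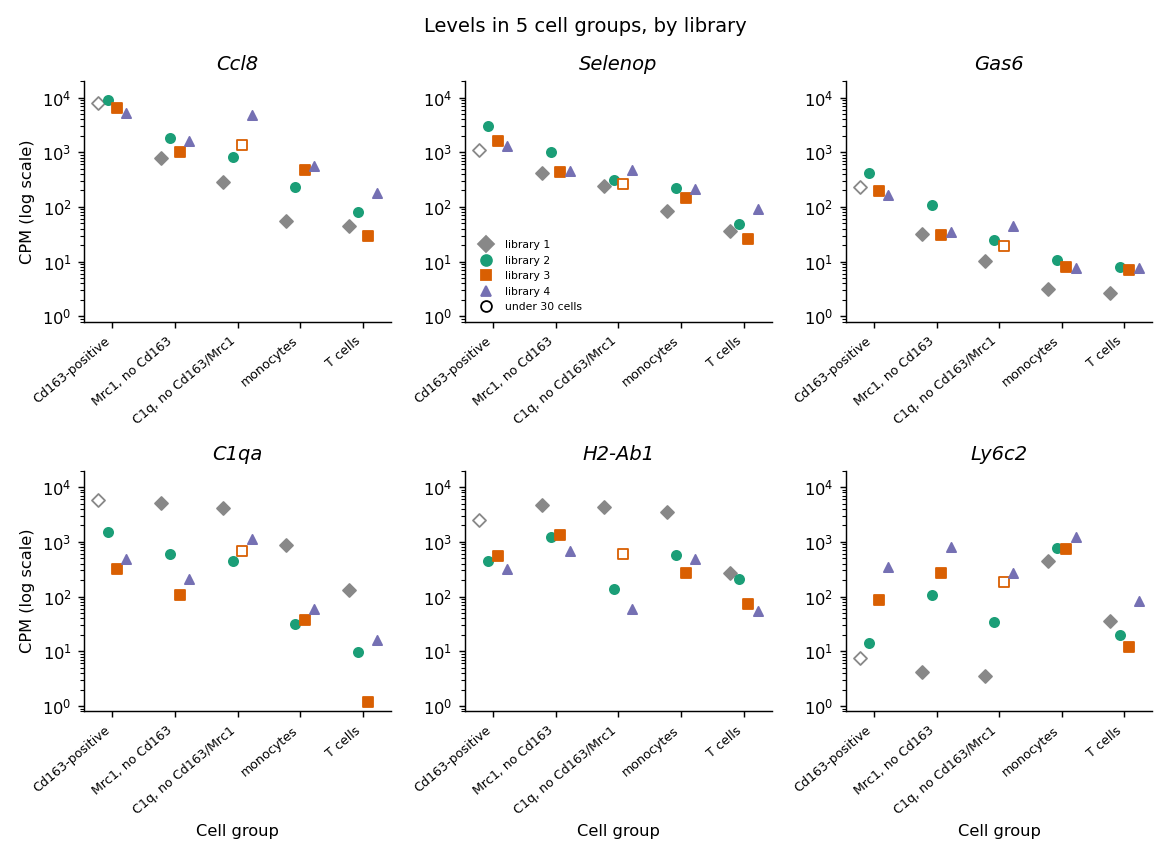
Summed level (CPM, log axis) of 6 genes in Cd163-positive macrophages and 4 other cell groups, with 1 symbol per library and open symbols for groups under 30 cells. Ccl8 lies at 5259 to 8960 CPM in the members and at 776 to 1786 CPM in macrophages with Mrc1 but no Cd163 UMI, and H2-Ab1 and C1qa are highest in library 1 in every group.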

How the data were processed

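Sorted CD45-positive tumour cells were profiled by droplet sequencing, and the authors deposited a single filtered matrix of raw UMI counts per gene and barcode (55450 genes, mm10), with all 4 libraries in it and 0 columns left unmapped. Cell Ranger is given as 2.1.1 in the submitters' processing notes, 3.0.2 in the methods and 6.1.2 in the matrix header. The study states 15603 cells after filtering, for its PBS and TIOs groups, while the 33064 barcodes deposited and 32133 kept here cover all 4 libraries, so that the counts are over unlike sets. The labels that assign samples were not used for comparisons, because suffixes are not linked to them. Counts were summed per library and cell group and scaled to CPM. No doublet caller was run. Detection was compared after thinning each cell to 1000 UMIs. The calling rule was tested on simulated data with known answers. These were summed counts with the same fold in every library, so variation between cells and very deep barcodes were not covered. Named genes were those of the rule, the 12 highest and 12 lowest called by median log2 fold difference, 2 to 4 leading genes of each list, and markers of other cells. The members and lists were chosen with earlier results of these data known. Alternatives changed the Cd163 minimum, depth, summing, CPM added and libraries, and others were added after values were seen: removal of deep cells, of cells with other cells' markers, and a minimum of 3 Cd163 UMIs. A further planned split of the members is not reported here. Promoters came from RefSeq, and gene coordinates from GENCODE on GRCm38. Python 3.11.15, numpy 2.4.6, scipy 1.17.1, pandas 2.3.3 and matplotlib 3.10.9 were used.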

Additional observations from a re-analysis of the deposited data

How the results depend on the processing

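The share of members among kept cells, 4.37%, was 2.98% with at least 2 Cd163 UMIs and 0.916% (277 of 30243 cells) when cells were thinned to 1000 UMIs before the rule, and ranged from 3.15% to 5.68% when 1 library was left out, lowest without library 4 and highest without library 1. The 21 higher genes became 34 with at least 2 and 39 with at least 3 Cd163 UMIs, and 21 to 32 with 1 library left out. The 8 lower genes became 30 and 31 under the same minima, 16 for the mean over cells, 22 with 1 CPM added, 13 without members above 20000 UMIs, and 8 to 24 with 1 library left out. The 32 and 24 are without library 4. Among cells of 3000 to 15000 UMIs 3 class II genes were lower in place of 5, and Folr2, Mrc1, Nxpe5, Cd74, H2-Ab1 and H2-Ea-ps lost their call. The mean over cells lost C1qc, Etv1, Fcrls, Mrc1 and Scamp5, and a minimum of 100 CPM lost Cela1, Etv1, Fcrls and Scamp5. Of 320 values (20 named genes under 16 alternatives), 47 moved, 273 did not, and none reversed. A changed CPM minimum or the removal of library 1 cannot alter these folds, so their values stayed the same by construction. Cd163, by which the groups were chosen, could not reverse. The Ccl8 share was 87.5% unthinned, 71.9% at 2000 UMIs and 54.5% with a minimum of 2 UMIs, and that of H2-Ab1 43.3%, 21.3% and 7.73%. Within the members, removal of cells above 20000 UMIs left 91 higher genes with Lyve1, 1 (and 0 lower) with Mki67, 9 with Folr2 and 4 with 3 or more Cd163 UMIs. Removal of cells with at least 5 endothelial UMIs left 115, 69, 13 and 7 for Lyve1, Mki67, Folr2 and Cd163. The causes were not tested. No paired test was run, and the results come from no test. With no map from libraries to samples, treatments could not be compared. Each difference was taken within a library. Among the limits, Cd163 is detected sparsely, so that membership follows depth in part. Libraries cannot be tied to treatments, and the 24 members of library 1 are too few for any call.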
